A study of Mus musculus with 9 samples.

Results

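The 39 Hox genes of the mouse were followed across RNA sequencing libraries of 9 cell cultures. They are every gene of the count table whose symbol is Hoxa, Hoxb, Hoxc or Hoxd followed by a number: 11 Hoxa, 10 Hoxb, 9 Hoxc and 9 Hoxd genes, out of 47729 genes counted. The 9 cultures form 3 groups. The NSC group holds primary neural stem cells of wild-type genotype from the subventricular zone (cultures 1, 3 and 5). The LTR group holds tumour cells derived from such stem cells with the genotype lgT/Ras (cultures 1 to 3). The NF1 group holds stem-cell-derived tumour cells with the genotype shp53, Nf1-/-, CDK4 (cultures 1 to 3). All 9 were grown in the same stem cell culture for up to 10 passages. The series states that the 3 cultures of each cell type were independent. It does not say whether each tumour culture was transformed separately, and p-values therefore measure the spread between these cultures only.

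Hox genes encode homeodomain transcription factors that give cells their position along the head-to-tail axis. They lie side by side in clusters, and genes of low number act nearer the head, in the hindbrain and neck, while genes of high number act in the lower trunk, limbs and tail. The forebrain, where the subventricular zone lies, forms in front of the Hox domain and normally keeps the clusters silent through Polycomb repression. In the GRCm38 genome the Hoxa cluster spans chr6:52155590-52260880, the Hoxb cluster chr11:96194316-96368256, the Hoxc cluster chr15:102921103-103036852 and the Hoxd cluster chr2:74668310-74765142.

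Hox transcripts were close to absent in neural stem cells and were present from the Hoxa cluster in all 6 tumour libraries. Hoxd transcripts were present in 4 tumour libraries and absent from the other two, LTR 2 and NF1 2. Hoxb and Hoxc genes gave next to no reads anywhere. Within Hoxd, LTR 1 and LTR 3 held mostly Hoxd8, and NF1 1 and NF1 3 mostly Hoxd10.

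The sequence just upstream of 4 members is printed because the results turn on them. Hoxa5 had the most Hox reads, Hoxd8 and Hoxd10 were the leading Hoxd genes of the LTR and the NF1 cultures, and Hoxb4, which had 0 reads in all 9 libraries, stands for a silent cluster. Each run gives the 250 bases before the start site in RefSeq on GRCm38.p6, read 5′ to 3′ on the gene's own strand, with CG dinucleotides in capitals. The positions are chr6:52204588-52204837 on the minus strand for Hoxa5, and on the plus strand chr2:74704365-74704614 for Hoxd8, chr2:74691641-74691890 for Hoxd10 and chr11:96318017-96318266 for Hoxb4.
Hoxa5: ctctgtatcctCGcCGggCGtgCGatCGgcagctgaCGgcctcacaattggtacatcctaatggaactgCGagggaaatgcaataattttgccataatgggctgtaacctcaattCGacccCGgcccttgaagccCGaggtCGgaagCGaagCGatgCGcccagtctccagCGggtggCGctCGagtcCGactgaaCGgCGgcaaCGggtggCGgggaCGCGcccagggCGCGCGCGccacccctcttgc
Hoxd8: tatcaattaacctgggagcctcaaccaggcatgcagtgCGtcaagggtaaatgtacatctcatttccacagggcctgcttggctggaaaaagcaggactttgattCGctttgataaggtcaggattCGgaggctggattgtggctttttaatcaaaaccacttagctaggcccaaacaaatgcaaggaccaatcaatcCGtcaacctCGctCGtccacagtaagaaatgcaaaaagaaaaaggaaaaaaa
Hoxd10: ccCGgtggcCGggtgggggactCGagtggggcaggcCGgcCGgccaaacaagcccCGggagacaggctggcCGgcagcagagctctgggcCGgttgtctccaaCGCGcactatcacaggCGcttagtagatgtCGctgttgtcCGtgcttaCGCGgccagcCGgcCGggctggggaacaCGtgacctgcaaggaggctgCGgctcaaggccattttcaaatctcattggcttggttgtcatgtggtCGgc
Hoxb4: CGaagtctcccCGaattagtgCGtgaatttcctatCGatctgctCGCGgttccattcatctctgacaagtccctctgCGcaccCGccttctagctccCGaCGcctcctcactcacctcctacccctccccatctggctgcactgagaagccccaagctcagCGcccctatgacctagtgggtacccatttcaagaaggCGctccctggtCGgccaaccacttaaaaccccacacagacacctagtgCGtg
These runs hold 28 CG dinucleotides for Hoxa5, 6 for Hoxd8, 20 for Hoxd10 and 14 for Hoxb4.

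Among the Hox genes with a promoter window, CG-rich promoters were found in both detected and undetected members. RefSeq windows of 300 bases (250 before and 50 after the start) were at hand for 22 of the 39 members, as 24 windows. Of the Hoxb and Hoxc genes, only Hoxb1, Hoxb4, Hoxb8 and Hoxc4 had a window. The median number of CG dinucleotides was 16 (range 4 to 29) in the 12 windows of members with 10 or more counts in some library and 14.5 (range 4 to 45) in the 12 windows of the other members, against 7 over all 32851 windows of the genome. The CCAAT box, searched as CCAAT on both strands, was in 62.5% of Hox windows and 37.4% of all windows. The TATA box, searched as TATAAA, was in 16.7% and 13.6%. A Cdx-type site, TTTATG, was in 20.8% and 11.9%, and a Hox-Pbx-type site, TGATNNAT, was in 16.7% and 8.85%. These matches describe letters in short windows and were not tested.

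The libraries held 28600479 (LTR 2) to 57231024 (NSC 3) counted reads, so that 3 counts, used as the limit below which a gene cannot be told from 0, correspond to 0.0541 to 0.114 CPM, the counts of a gene scaled to library size. These limits, and the intervals on counts given further on, cover counting error only. The file headers place all NSC libraries in sequencing lane 1 and all tumour libraries in lane 7, so lane and tumour state cannot be told apart. NF1 2 stood apart: its log CPM correlated at r = 0.936 and 0.911 with NF1 1 and NF1 3, whereas those libraries correlated at 0.960 to 0.977 with the LTR libraries, and its correlation with the NSC libraries was 0.886 to 0.892 against 0.806 to 0.840 for NF1 1 and NF1 3. Gene-level reads of Nf1 in the NF1 group overlapped those of both other groups, while every NSC library lay above every LTR library (NSC 82.5 to 114 CPM, LTR 40.3 to 80.0 CPM, NF1 40.1 to 97.2 CPM), and the deleted stretch is not given, so they do not check the genotype. Cdk4 had 325 to 456 CPM in the NSC group, 935 to 1020 CPM in the LTR group, 795 and 1124 CPM in NF1 1 and NF1 3 and 393 CPM in NF1 2, which lay in the NSC range. The LTR libraries were high although their label names no CDK4, so Cdk4 reads do not check the genotype. Trp53, the gene of p53, had 217, 151 and 221 CPM in NF1 1, 2 and 3 and 223 to 281 CPM in LTR, above the 101 to 114 CPM of NSC. Its RNA in the libraries labelled NF1 was thus not reduced relative to NSC, and it was below every LTR library. The series holds no culture of that line without the knockdown, so these reads do not check the genotype either. Every NF1 value here is that of the libraries so labelled. Of the 12 neural stem cell markers, 7 fell and 1 (Pax6) rose in LTR, and 5 fell in NF1. Over all tested genes 14.9% rose and 20.9% fell in LTR, and 10.1% rose and 13.1% fell in NF1. The summed level of the 12 markers was 13603 to 14396 CPM (NSC), 6833 to 12692 CPM (LTR) and 11226 to 13586 CPM (NF1).

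Some markers of other cell types differed between the groups. The counts of markers that rose or fell stand beside the shares over all tested genes, 14.9% and 20.9% in LTR and 10.1% and 13.1% in NF1. Of 10 fibroblast and mural cell markers 7 were tested: 1 rose and 4 fell in LTR and 5 fell in NF1, and the summed level was 278 to 2006 CPM (NSC), 60.7 to 190 CPM (LTR) and 33.2 to 48.5 CPM (NF1). Of 7 endothelial markers 5 were tested: 2 rose and 1 fell in each line, with sums of 7.27 to 8.57 CPM (NSC), at least 29.4 CPM in each LTR library and 24.5 to 163 CPM (NF1). Of 8 myeloid markers (9 counted genes) 2 were tested: 1 rose in LTR and 2 in NF1, with sums of 2.99 to 5.20 CPM (NSC), 3.71 to 8.01 CPM (LTR) and 7.07 to 24.1 CPM (NF1). The 6 markers of motor and spinal neurons, cells that express Hox genes in the body, stayed under 10 counts in every library. Their sum was 0 in NSC and at most 0.305 CPM in a tumour library. The highest endothelial and myeloid sums were those of NF1 2. The part of these cell types in the Hox values was not tested.

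Detection, set at 10 or more counts in a library, was reached by 0 of the 39 genes in each NSC library. It was reached by 13, 7 and 10 genes in LTR 1, 2 and 3 and by 9, 5 and 10 genes in NF1 1, 2 and 3. In all, 13 members were detected in some library, 11 never had more than 9 counts and 15 had 0 counts in all 9 libraries. Reads over the whole family numbered 6, 2 and 4 in NSC 1, 3 and 5, which makes 12 reads in 3 libraries. They numbered 1313, 581 and 1203 in LTR 1, 2 and 3 and 856, 148 and 684 in NF1 1, 2 and 3. Every tumour library thus lay far above every stem cell library, and NF1 2 had the fewest Hox reads of the tumour libraries. In these bulk samples, fewer cells of a type and less RNA per cell cannot be told apart.

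**Figure D1:**
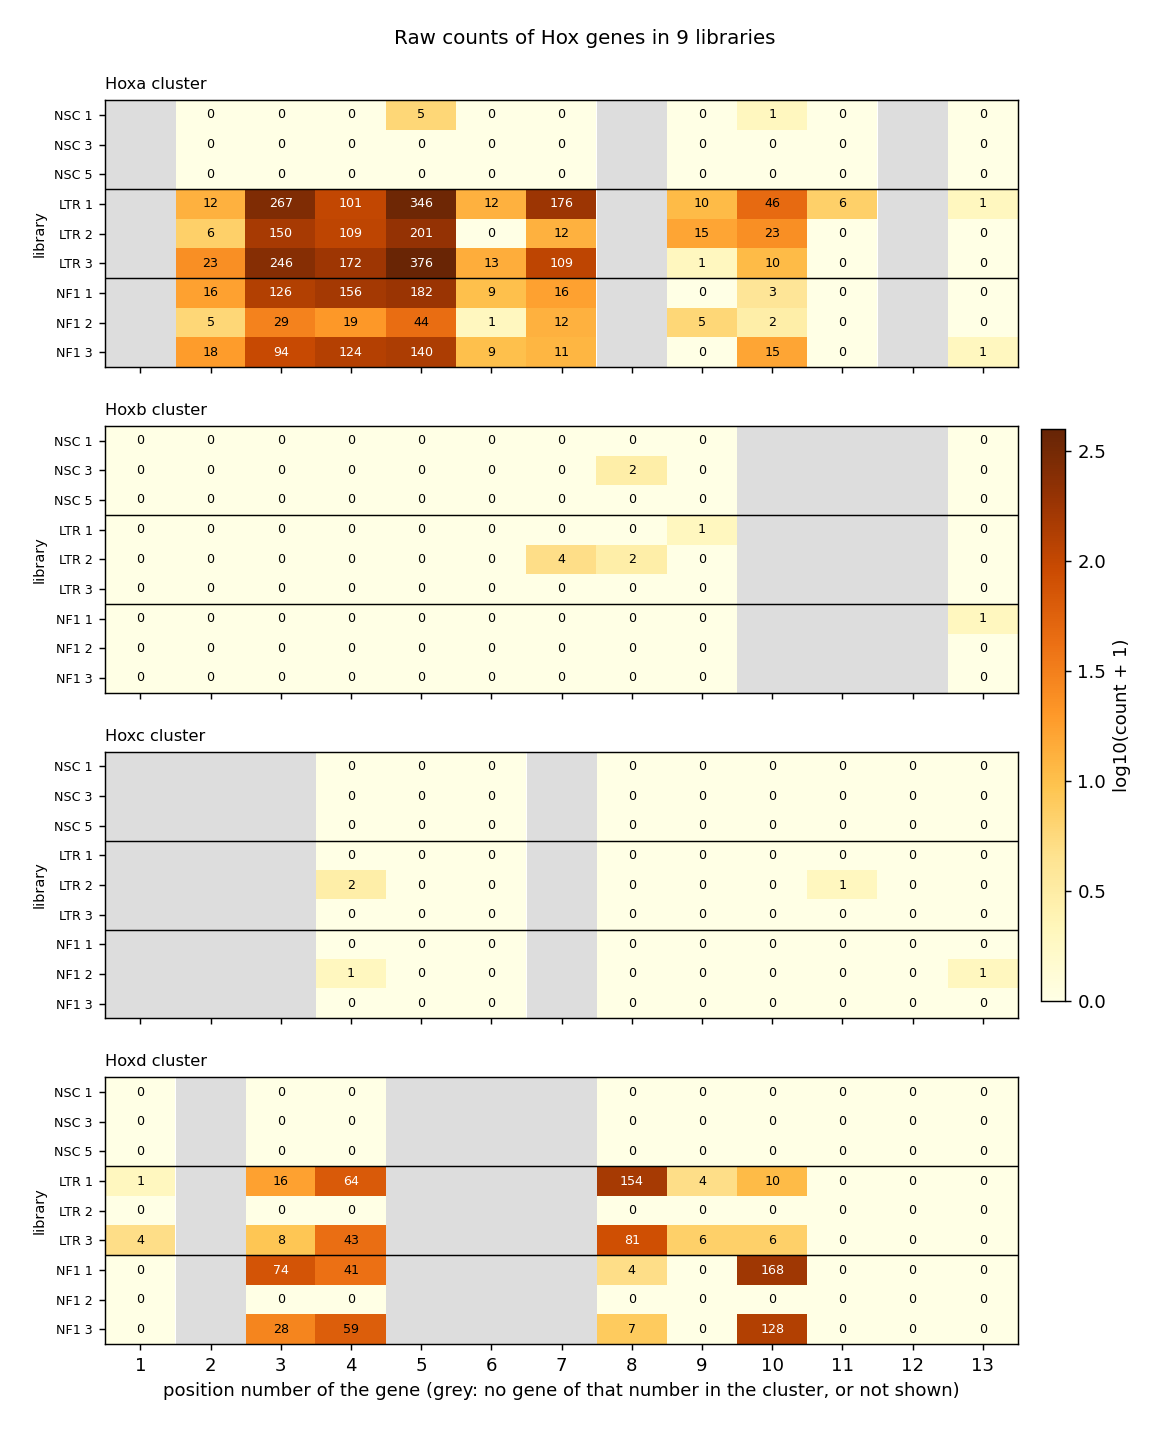
Raw read counts of the Hox genes, with 1 panel for each cluster, libraries in rows and the gene's position number in columns; colour is log10(count + 1) and grey marks numbers that a cluster lacks or that are not shown. The 3 NSC rows are near 0 throughout, Hoxa is filled in all 6 tumour rows, and Hoxd is filled in 4 of the 6 and empty in LTR 2 and NF1 2.

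Detection in all 3 libraries of a group was reached by 6 genes in LTR, among them Hoxa3, Hoxa4, Hoxa5, Hoxa7 and Hoxa10, and by 5 in NF1, among them Hoxa3, Hoxa4, Hoxa5 and Hoxa7. Over the whole table, 0.362% of genes had 10 or more counts in all 3 LTR and under 10 in all 3 NSC libraries, and 0.274% did so for NF1. The pattern in all 6 tumour libraries was shown by 0.191% of genes, and Hoxa3, Hoxa4, Hoxa5 and Hoxa7 were among them.

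Tests were made with edgeR's quasi-likelihood test over 15696 genes, with Benjamini-Hochberg adjustment and a threshold of 0.05. Of the 39 members, 10 had enough reads to be tested, and 29 did not. In LTR against NSC, 8 of the 10 rose, where 14.9% of all tested genes were called higher and 20.9% lower. In NF1 against NSC, 9 of the 10 rose, where 10.1% of all genes were called higher and 13.1% lower. None fell in either comparison: at an unadjusted p under 0.05 edgeR gave 0 lower, and DESeq2 and limma-voom also gave 0. DESeq2 called 9 of the 10 higher in LTR and 10 in NF1, and limma-voom 7 and 6. The 10 tested members entered the test through their reads in tumour libraries, so their count is a description and is not read against those percentages.

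The low-numbered Hoxa genes, which pattern the hindbrain and its neighbouring arches, were present in both tumour lines. Hoxa2, which specifies the branchial arch behind the jaw, had 0 counts in NSC. It had 0.356, 0.229 and 0.687 CPM in LTR and 0.464, 0.160 and 0.614 CPM in NF1, or at least 18.4-fold and 17.9-fold above NSC when 3 counts over that group are taken as the limit (edgeR adjusted p 0.00551 and 0.00788). The LTR and NF1 values of Hoxa2 overlapped. Its highest count in any library was 23, so its level rests on few reads.

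Hoxa3, Hoxa4 and Hoxa5, genes of the neck and upper trunk, made up 63.0% (NF1 2) to 81.7% (NF1 1) of Hoxa reads in the tumour libraries. Hoxa3, which is needed for the thymus and parathyroids, had 0 counts in NSC and 7.92, 5.72 and 7.34 CPM in LTR (6.99 ± 1.14, SD, n = 3). In NF1 it had 3.65, 0.928 and 3.21 CPM (2.6 ± 1.46, SD, n = 3). Every LTR library was above every NF1 library, and every NF1 library above NSC. Over all genes, 12.5% did not overlap between NF1 and LTR, 59.0% between LTR and NSC and 42.3% between NF1 and NSC. The increase of Hoxa3 over NSC was at least 304-fold in LTR and at least 113-fold in NF1 (edgeR adjusted p 0.000936 and 0.00174). Hoxa5, which acts in the respiratory tract and the neck skeleton, had 5, 0 and 0 counts in NSC. It reached 10.3, 7.67 and 11.2 CPM in LTR (9.72 ± 1.84, SD, n = 3) and 5.27, 1.41 and 4.78 CPM in NF1 (3.82 ± 2.10, SD, n = 3). The LTR and NF1 ranges of Hoxa5 were separate as well, and its pooled count, relative to summed library size, was 258 times that of NSC in LTR (exact counting interval 110 to 796) and 100.5 times in NF1 (42.7 to 311; edgeR adjusted p 0.00173 and 0.00431). The size rests on the 5 counts of NSC 1: without that library the fitted log2 difference moved from 7.79 to 11.41 in LTR and from 6.44 to 10.07 in NF1, and both calls held.

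Hoxa4 had 0 counts in NSC, 2.99, 4.16 and 5.13 CPM in LTR (4.10 ± 1.07, SD, n = 3) and 4.52, 0.608 and 4.23 CPM in NF1 (3.12 ± 2.18, SD, n = 3). NF1 1 and NF1 3 lay within the LTR range and NF1 2 far below it. The increase over NSC was at least 178-fold in LTR and at least 136-fold in NF1 (edgeR adjusted p 0.00200 and 0.00327).

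Hoxa7, a gene of the thoracic region, was uneven among the LTR cultures. It had 0 counts in NSC, 5.22, 0.458 and 3.25 CPM in LTR 1, 2 and 3, and 0.464, 0.384 and 0.375 CPM in NF1 1, 2 and 3 (2.98 ± 2.39 and 0.408 ± 0.0486, SD, n = 3). LTR 2 thus fell in the narrow range of the NF1 libraries, while LTR 1 and LTR 3 were far above it. The increase over NSC was at least 129-fold in LTR and at least 17.7-fold in NF1 (edgeR adjusted p 0.00293 and 0.0149). Hoxa7 made up 16.6%, 2.10% and 10.3% of Hoxa reads in LTR 1, 2 and 3 (exact 95% intervals 14.4 to 18.9, 1.09 to 3.64 and 8.56 to 12.3%). Its share was 2.82%, 8.22% and 2.38% in NF1 1, 2 and 3 (intervals 1.62 to 4.53, 4.32 to 13.9 and 1.19 to 4.22%).

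Hoxa6, its neighbour in the thoracic group, had 0 counts in NSC, 12, 0 and 13 in LTR and 9, 1 and 9 in NF1, and was not tested. The posterior Hoxa genes were weaker. Hoxa10, which acts in the lumbar spine and the uterus, had 1 count in NSC, 1.36, 0.877 and 0.299 CPM in LTR, and 0.0869, 0.0640 and 0.512 CPM in NF1. Its pooled count, relative to summed library size, was 110 times that of NSC in LTR (exact counting interval 19.2 to 4412) and 27.5 times in NF1 (4.39 to 1138), with edgeR adjusted p of 0.00683 and 0.0448. The NF1 call rested on 3, 2 and 15 counts. It was lost when any of NSC 1, NSC 3, NSC 5, LTR 1, LTR 2, NF1 1 or NF1 3 was left out (adjusted p 0.0567 to 0.187), and with limma-voom (0.0589).

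Hoxa9, known for its role in blood progenitors and leukaemia, had 0 counts in NSC, 10, 15 and 1 in LTR and 0, 5 and 0 in NF1. LTR 2, which was low for Hoxa7, had the most Hoxa9 reads. Hoxa11 had 6 counts in LTR 1 and 0 elsewhere, and Hoxa13, a gene of the limb tips and the hindgut, had 1 count each in LTR 1 and NF1 3. Hoxa9 to Hoxa13 together gave 5.93%, 6.64% and 1.04% of Hoxa reads in LTR 1, 2 and 3 and 0.528%, 4.79% and 3.46% in NF1 1, 2 and 3. The end of the cluster that acts near the tail thus gave a small share of the reads in all 6 tumour libraries.

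Levels between Hoxa genes were compared as CPM per kb of exon. On that scale Hoxa5 was the highest Hoxa gene in LTR 1, 2 and 3 (5.47, 4.08 and 5.98) and in NF1 2 (0.750). Hoxa4 was highest in NF1 1 and NF1 3 (2.84 and 2.66), but by little, since Hoxa5 stood at 2.81 and 2.55 there. Hoxa4 was next after Hoxa5 in the LTR libraries (1.88, 2.61 and 3.22). Hoxa3 was lower, at 0.951 to 1.32 in LTR and 0.154 to 0.607 in NF1. Its place depends on the length used: 6014 exon bases, against 1594 for Hoxa4 and 1877 for Hoxa5. Of the Hoxa3 bases, 72.9% belong to no other counted gene. By CPM without length, Hoxa3 lay above Hoxa4 in every LTR library and NF1 2, and below it in NF1 1 and NF1 3. Hoxa5 took a steady share of raw Hoxa reads, from 30.1% (NF1 2) to 35.6% (LTR 3).

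**Figure D2:**
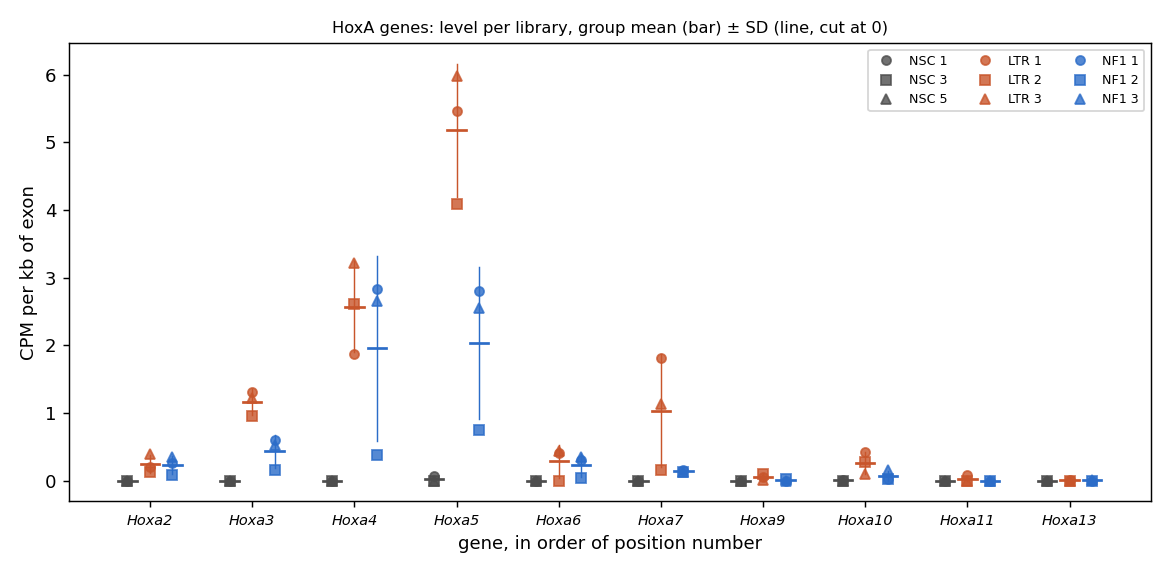
Level of the Hoxa genes shown, in CPM per kb of exon, with points for libraries coloured by group, a bar for the group mean and a line for ± SD that is cut at 0. Hoxa5 and Hoxa4 stand highest in both tumour groups, NSC points lie at or near 0, and NF1 2 (blue square) lies below the other NF1 points for Hoxa2 to Hoxa6.

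NF1 2 held less Hoxa RNA than the other NF1 cultures. The summed level of the 11 Hoxa genes was 31.5, 21.8 and 31.5 CPM in LTR 1, 2 and 3 and 16.5, 4.67 and 15.8 CPM in NF1 1, 2 and 3, against 0.159, 0 and 0.107 CPM in NSC 1, 3 and 5. The NF1 2 sum was 0.290 times the mean of NF1 1 and NF1 3. The ratio differed by gene, at 0.139 for Hoxa4, 0.271 for Hoxa3 and 0.916 for Hoxa7. Without NF1 2, 13 members had enough reads to be tested, of which 13 rose in LTR and 11 in NF1. Calls over all genes grew as well. Genes called higher went from 2346 of 15696 to 3276 of 16343 in LTR, and from 1578 to 2898 in NF1. The 13 members entered the test through tumour reads, so their count is a description.

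Hoxd reads split the tumour cultures within each line. Summed over the 9 Hoxd genes, the level was 7.38, 0 and 4.42 CPM in LTR 1, 2 and 3 and 8.32, 0 and 7.58 CPM in NF1 1, 2 and 3. All 3 NSC libraries had 0 Hoxd counts. LTR 2 and NF1 2 were thus at 0 while the other 4 tumour libraries had 4.42 to 8.32 CPM. LTR 2 held 572 Hoxa reads, so its lack of Hoxd reads did not come with a lack of Hox reads as such.

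Hoxd4, which acts in the hindbrain and upper neck, had 64, 0 and 43 counts in LTR 1, 2 and 3 and 41, 0 and 59 in NF1 1, 2 and 3. That is 1.90, 0 and 1.28 CPM in LTR and 1.19, 0 and 2.01 CPM in NF1. The 4 positive libraries were at least 11.2 to 21.0 times above the limit of 3 counts in the zero library of their own line. The means were at least 46.1-fold (LTR) and 46.4-fold (NF1) above NSC, with edgeR adjusted p of 0.0474 and 0.0627. The LTR call was lost when any of NSC 1, NSC 3, NSC 5, LTR 1, LTR 3 or NF1 1 was left out (adjusted p 0.0682 to 0.1002), and with limma-voom (0.128). The NF1 comparison passed when LTR 2 or NF1 2 was left out (adjusted p 0.0409 and 0.0114), and with DESeq2 (0.00333).

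Hoxd3, which patterns the upper neck vertebrae, was higher in the NF1 than in the LTR libraries that had it. It had 16, 0 and 8 counts in LTR (0.474, 0 and 0.239 CPM) and 74, 0 and 28 in NF1 (2.14, 0 and 0.956 CPM), with 0 in NSC. The NF1 mean was at least 44.9-fold above NSC (edgeR adjusted p 0.0469) and the LTR mean at least 10.3-fold (0.0952). The NF1 call was lost without any of NSC 1, NSC 3, NSC 5, LTR 1, LTR 3, NF1 1 or NF1 3 (adjusted p 0.0632 to 0.119), with limma-voom (0.107) and with scaling by library totals (0.0506). The LTR comparison passed without NF1 2 (0.0232) and with DESeq2 (0.0344). In GENCODE M21, Hoxd3 and Hoxd4 share exon bases with each other, with Gm28230 on the same strand and with Hoxd3os1, an antisense transcript. Hoxd3 also shares bases with Haglr on the other strand. Gm28230, annotated as protein-coding, had 18, 1 and 6 counts in LTR, 15, 0 and 10 in NF1 and 0 in NSC. With these overlaps, 37.2% of Hoxd3 and 47.7% of Hoxd4 exon bases belong to no other counted gene. The library kit does not mark strand, and the reads of these genes are uncertain to that extent.

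Hoxd8 had the most reads of the Hoxd genes in LTR 1 and LTR 3. It had 154, 0 and 81 counts in LTR 1, 2 and 3, which is 4.57, 0 and 2.42 CPM, and 4, 0 and 7 counts in NF1 1, 2 and 3, which is 0.116, 0 and 0.239 CPM. NSC had 0. The LTR mean was at least 101-fold and the NF1 mean at least 5.14-fold above NSC. Hoxd8 had 10 or more counts in 2 libraries only and did not pass the filter on low counts. It passed the filter when LTR 2, any NSC or any NF1 library was left out. It then rose in LTR without NF1 1, NF1 2, NF1 3, LTR 2 or NSC 3 (edgeR adjusted p 0.0104 to 0.0456) and missed the threshold without NSC 1 (0.0577) or NSC 5 (0.0562). In NF1 it passed in none of these fits (0.0685 to 0.419).

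Hoxd10, which helps specify lumbar motor neurons and the hind limb, showed the reverse order. It had 10, 0 and 6 counts in LTR (0.296, 0 and 0.179 CPM) and 168, 0 and 128 in NF1 (4.87, 0 and 4.37 CPM), with 0 in NSC. The means were at least 6.90-fold (LTR) and 134-fold (NF1) above NSC, with edgeR adjusted p of 0.148 and 0.0315. The NF1 call was lost without any of NSC 1, NSC 3, NSC 5, LTR 3, NF1 1 or NF1 3 (adjusted p 0.0508 to 0.0806) and with limma-voom (0.113), and the LTR comparison passed without NF1 2 (0.0201). NF1 1 and NF1 3 were at least 50.7 and 45.5 times above the limit in NF1 2.

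The contrast between Hoxd8 and Hoxd10 can be read within a library. Of the reads of these 2 genes, Hoxd8 gave 93.9% in LTR 1 (154 of 164, exact 95% interval 89.1 to 97.0%) and 93.1% in LTR 3 (81 of 87, 85.6 to 97.4%). It gave 2.33% in NF1 1 (4 of 172, 0.637 to 5.85%) and 5.19% in NF1 3 (7 of 135, 2.11 to 10.4%). The intervals within a line overlapped and those of different lines lay far apart, with 2 libraries on each side. As 2 libraries against 2, the contrast was seen in the data before it was described, and it has no test of its own. Hoxd1 had 1, 0 and 4 counts and Hoxd9 4, 0 and 6 counts in LTR, and both had 0 in NF1 and NSC. Hoxd11, Hoxd12 and Hoxd13 had 0 counts in all 9 libraries.

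**Figure D3:**
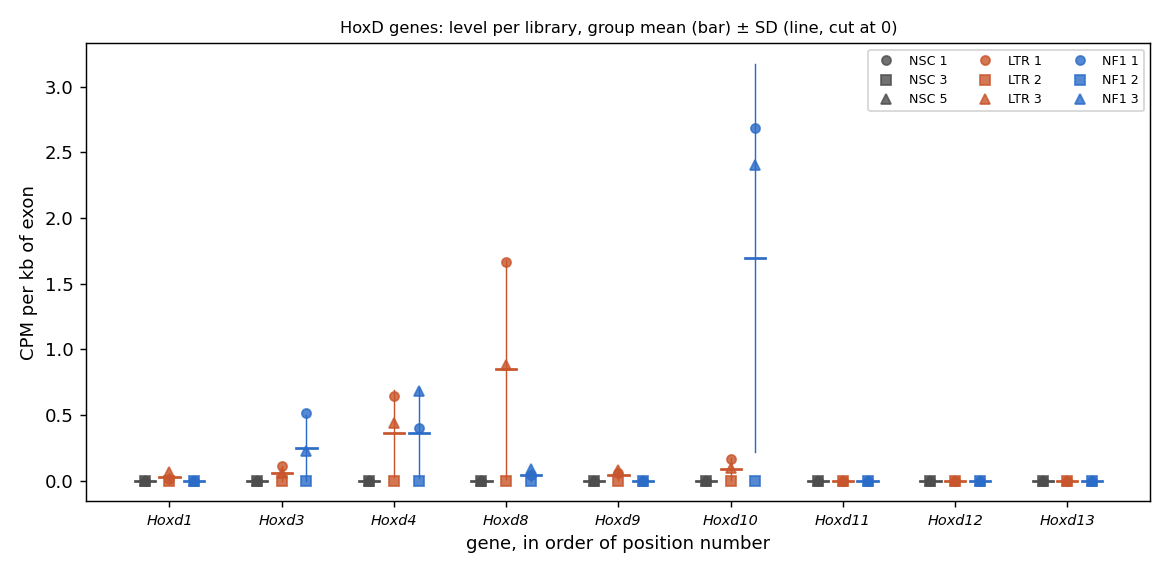
Level of each Hoxd gene in CPM per kb of exon, drawn as for Hoxa: points are libraries, bars group means, lines ± SD cut at 0. Squares (LTR 2 and NF1 2) lie at 0 for every gene; Hoxd8 is high in LTR 1 and LTR 3 only, and Hoxd10 in NF1 1 and NF1 3.

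The Hoxb and Hoxc clusters gave 10 and 5 reads over all 9 libraries, for 19 genes. The highest value was 4 counts of Hoxb7 in LTR 2. Hoxb8 had 2 counts in NSC 3 and 2 in LTR 2, Hoxb9 had 1 in LTR 1, and Hoxb13 had 1 in NF1 1. Hoxc4 had 2 counts in LTR 2 and 1 in NF1 2, Hoxc11 had 1 in LTR 2 and Hoxc13 had 1 in NF1 2. The other 6 Hoxb and 6 Hoxc genes had 0 throughout. A count of 0 allows up to 3 counts, or 0.114 CPM in the shallowest library, so low expression under that level was not detectable. Expression of Hoxa genes was thus not accompanied at this depth by their counterparts of the same number in Hoxb and Hoxc, such as Hoxb4, Hoxb5, Hoxc4 and Hoxc5.

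No Hox gene passed the test between NF1 and LTR. Of all 15696 genes, 0% were called higher and 0% lower in NF1 than in LTR by edgeR. DESeq2 called 328 and limma-voom 1, none of them among the 10 Hox genes. At an unadjusted p under 0.05, edgeR gave 1596 genes, of which 3 were Hox: Hoxa7, Hoxa3 and Hoxd10. The log2 differences (NF1 minus LTR) were -2.86 ± 0.85 for Hoxa7 (SE; edgeR adjusted p 0.379), -1.43 ± 0.56 for Hoxa3 (adjusted p 0.460) and 4.21 ± 1.69 for Hoxd10 (adjusted p 0.474). For the rest they ran from -1.94 ± 0.92 for Hoxa10 to 2.08 ± 1.49 for Hoxd3 (adjusted p 0.519 and 0.692). These standard errors leave room for sizeable differences, and the missed threshold does not show that the lines were alike.

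Noncoding genes inside the Hoxa cluster rose as well. Of 17 listed noncoding genes from all Hox clusters that were counted, 5 were tested, of which 3 rose in LTR and 4 in NF1. The 4 in NF1 include Haglr of the Hoxd cluster. Counting every gene within the Hoxa span, 4 that are not Hox genes were tested and all 4 rose in LTR and in NF1. Over all tested genes 14.9% rose in LTR and 10.1% in NF1. The noncoding genes entered the test through their reads in tumour libraries, so their counts are a description and are not read against those percentages. Hotairm1, a long noncoding RNA of this cluster, had 2, 5 and 0 counts in NSC, 76, 92 and 58 in LTR and 44, 26 and 51 in NF1 (edgeR adjusted p 0.00182 and 0.00484). Hoxaas2 had 0 in NSC, 13, 20 and 16 in LTR and 12, 13 and 13 in NF1. NF1 2 was not below the other NF1 cultures for this gene. Hoxaas3, which overlaps Hoxa3 and Hoxa7, had 0 in NSC, 15, 18 and 19 in LTR and 32, 1 and 22 in NF1. Gm15050 had 0, 3 and 0 in NSC, 29, 35 and 18 in LTR and 17, 21 and 35 in NF1. Hotairm1, Hoxaas2 and Hoxaas3 overlap Hox exons in part, and reads cannot be given to a strand. Gm15050 shares no exon bases with a Hox gene.

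Within Hoxd, the antisense transcripts showed the pattern of Hoxd itself. Hoxd3os1 had 69, 0 and 24 counts in LTR and 88, 0 and 83 in NF1. Haglr, which starts near Hoxd1, had 22, 0 and 17 in LTR and 53, 0 and 53 in NF1. Both had 0 in NSC, LTR 2 and NF1 2. Haglr rose in NF1 (edgeR adjusted p 0.0481, at least 48.5-fold) and did not pass in LTR (0.0707), and Hoxd3os1 missed the threshold in both (0.0583 and 0.0542). Hotair, the noncoding gene within Hoxc, and Hottip, beside Hoxa13, had 0 counts in all 9 libraries.

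Some genes flanking the clusters were expressed in neural stem cells as well, while the noncoding gene Gm13652 beside Hoxd had 0 counts there. Of 118 genes within 500 kb outside a cluster, 48 had 10 or more counts in some library. Over all genes within 500 kb outside a cluster, 39 were tested, of which 6 rose and 7 fell in LTR and 4 rose and 3 fell in NF1. Of 23 listed flanking genes that were counted, 17 were tested: 4 rose and 2 fell in LTR, and 4 rose and 1 fell in NF1. Over all tested genes 14.9% rose and 20.9% fell in LTR, and 10.1% rose and 13.1% fell in NF1. Cbx5, a heterochromatin protein gene beside Hoxc, fell from 752 ± 71.8 CPM in NSC to 338 ± 37.7 in LTR and 297 ± 26.9 in NF1 (SD, n = 3; edgeR adjusted p 0.00245 and 0.00217). Skap2, which codes for an adaptor protein and lies 143 kb from the Hoxa cluster, had 29.3 ± 3.64 CPM in NSC and rose to 59.5 ± 6.09 in LTR and 55.3 ± 1.34 in NF1 (SD, n = 3; edgeR adjusted p 0.00322 and 0.00681). On the other side of Hoxa, Hibadh and Tax1bp1 did not pass the test in either line. Mtx2, a mitochondrial gene 60.7 kb from the Hoxd1 end, had 38.9, 47.3 and 40.1 CPM in NSC and 121, 117 and 110 CPM in LTR. In NF1 it had 130, 47.7 and 198 CPM (edgeR adjusted p 0.0223 in LTR and 0.0246 in NF1). LTR 2, which had no Hoxd reads, was as high in Mtx2 as LTR 1 and LTR 3, whereas NF1 2 was at the level of NSC. Lnp, 88.9 kb beyond the Hoxd13 end, rose in both lines too (edgeR adjusted p 0.0138 and 0.0276), again with NF1 2 (36.3 CPM) near the NSC libraries (27.2 to 34.9 CPM).

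**Figure D4:**
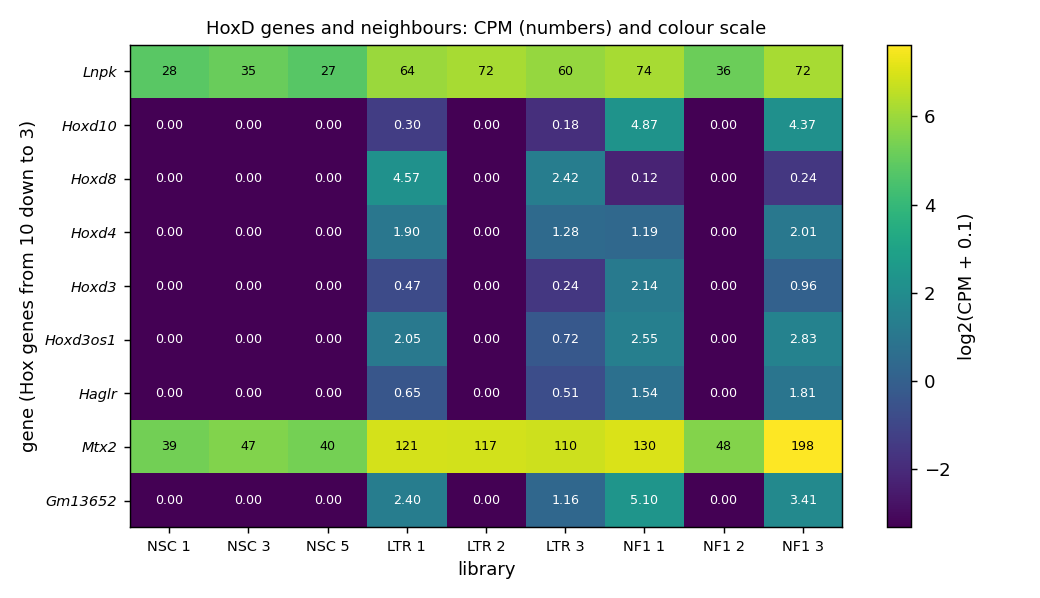
CPM of Hoxd genes, antisense transcripts within the cluster and flanking genes (rows; Lnpk is the newer symbol of Lnp) in each library (columns), with log2(CPM + 0.1) as colour. The Hoxd genes, Hoxd3os1, Haglr and Gm13652 read 0 in the NSC libraries, LTR 2 and NF1 2, while Mtx2 reads 117 in LTR 2 and 48 in NF1 2.

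Among genes that regulate or work with Hox genes, Cdx2 was absent from neural stem cells and present in 5 of the 6 tumour libraries. Cdx2, a homeobox factor that activates Hox genes in the early trunk and the gut, had 0 counts in NSC and 25.9, 15 and 3.82 CPM in LTR 1, 2 and 3. It had 0.724, 0 and 1.16 CPM in NF1 1, 2 and 3. All LTR libraries were above all NF1 libraries, and the means were at least 648-fold (LTR) and 27.3-fold (NF1) above NSC (edgeR adjusted p 0.00539 and 0.0404). LTR 2 had Cdx2 reads and no Hoxd reads. Of the 8 ParaHox, Cdx and Evx genes listed, 3 were tested: Cdx2 rose, Gsx2 fell in both lines, and Gsx1 did not pass. Cdx1 had 0 counts in all libraries.

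The TALE homeobox cofactors, which bind DNA together with Hox proteins, were expressed in all groups. Of 9 members, 5 fell in LTR and 2 in NF1, with medians of -0.72 and -0.66 on the log2 scale against -0.06 and 0.00 over all genes. Of all tested genes 20.9% fell in LTR and 13.1% in NF1, and the counts of this and the following lists stand beside those shares and the 14.9% and 10.1% that rose. Meis2 fell by 1.85 ± 0.20 in LTR and by 1.07 ± 0.19 in NF1 on the log2 scale (SE; edgeR adjusted p 0.000777 and 0.00592), from 175 ± 8.17 CPM in NSC to 48.3 ± 5.06 and 83.1 ± 18.0 (SD, n = 3). Pbx4 fell by 1.12 ± 0.31 in NF1 (adjusted p 0.0291) and Meis3 by 1.88 ± 0.57 in LTR (adjusted p 0.0310).

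Polycomb genes, which keep Hox clusters silent, moved in both directions. Of 11 genes of Polycomb repressive complex 2, which methylates histone H3 at lysine 27, 3 rose and 2 fell in each line (medians 0.32 in both lines on the log2 scale). Phf19, an accessory subunit, fell by 1.69 ± 0.30 in LTR and by 2.35 ± 0.31 in NF1 (SE; edgeR adjusted p 0.00402 and 0.00191). Mtf2, another accessory subunit, rose by 1.18 ± 0.25 and 1.04 ± 0.25 (adjusted p 0.00765 and 0.0177), and Eed, a core subunit, by 1.05 ± 0.23 and 0.76 ± 0.23 (adjusted p 0.00882 and 0.0421). Of 19 genes of Polycomb repressive complex 1, 4 rose and 3 fell in LTR and 4 rose and 1 fell in NF1 (medians -0.04 and 0.09). Pcgf6 rose in both lines (by 1.39 ± 0.28 and 1.17 ± 0.28 on the log2 scale), as did Cbx8 (0.88 ± 0.25 and 0.99 ± 0.25), and Rybp fell by 1.04 ± 0.26 in LTR.

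Few trithorax genes and H3K27 demethylases, which oppose Polycomb, passed the test. Of 17 members, 1 rose and 1 fell in each line (medians 0.05 in both). Kmt2c, a histone methyltransferase, fell by 2.20 ± 0.48 in LTR and by 1.67 ± 0.47 in NF1 on the log2 scale (SE; edgeR adjusted p 0.00848 and 0.0318). Ash2l rose in LTR (0.65 ± 0.17, adjusted p 0.0165) and Kdm6a, a demethylase of the Polycomb mark, in NF1 (0.83 ± 0.21, adjusted p 0.0235). Kmt2a, the methyltransferase best known for keeping Hox genes active, lay at 38.0 to 106 CPM in the tumour libraries and 48.3 to 87.1 CPM in NSC; it was named after its values were seen.

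Retinoic acid, which turns on Hox genes from the low-numbered end, has a pathway list of 16 genes, of which 12 were tested. In each line 3 fell (medians -1.46 in LTR and -0.29 in NF1). Aldh1a1, an enzyme that makes retinoic acid, had 3.68 ± 1.21 CPM in NSC and fell to 0.0396 ± 0.0453 in LTR and 0.106 ± 0.0208 in NF1 (SD, n = 3; edgeR adjusted p 0.00110 and 0.00209). Rarb, a receptor and a direct target of retinoic acid, had 8.92, 23.4 and 7.16 CPM in NSC, 0.445, 0.534 and 0.448 in LTR and 1.74, 6.66 and 0.0683 in NF1. It fell in LTR (adjusted p 0.0150) and did not pass in NF1 (0.154). Cyp26b1, which breaks retinoic acid down, fell in LTR (adjusted p 0.0212).

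Forebrain factors fell in part. Of 15 such factors 13 were tested: 8 fell and 1 rose in LTR, and 3 fell in NF1 (medians -1.41 and -0.46). Gsx2, a factor of the ventral forebrain, fell in both lines: NSC cultures had 5.66, 3.45 and 3.81 CPM, LTR cultures 0, and NF1 cultures 0, 0.0320 and 0 (edgeR adjusted p 0.00127 and 0.00184). Otx2, which marks forebrain and midbrain, had 15.5, 12.0 and 14.7 CPM in NSC, 0.267, 0 and 0.149 in LTR and 0.580, 2.91 and 0.683 in NF1 (adjusted p 0.00212 and 0.0202). Nkx2-1 fell in LTR (adjusted p 0.00159), where it had 0 counts. Six3, Lhx2 and Meis1, which appear in the plot of these factors, were chosen after their values were seen.

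Of 12 midbrain, hindbrain and spinal cord factors 6 were tested. Of these, 2 rose (En1 and En2) and 2 fell (Pax8 among them) in LTR and 1 rose (En1) in NF1, with medians of -1.50 and 0.74 on the log2 scale. En1, a factor of the midbrain-hindbrain border, had 0.0265, 0.0180 and 0.0536 CPM in NSC, 2.94, 1.45 and 3.02 CPM in LTR and 0.261, 1.47 and 0.546 CPM in NF1 (edgeR adjusted p 0.00166 and 0.00687). Neither tumour group overlapped with NSC for En1. Such a lack of overlap, in either direction, was seen for 59.0% of all genes in LTR and 42.3% in NF1.

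**Figure D5:**
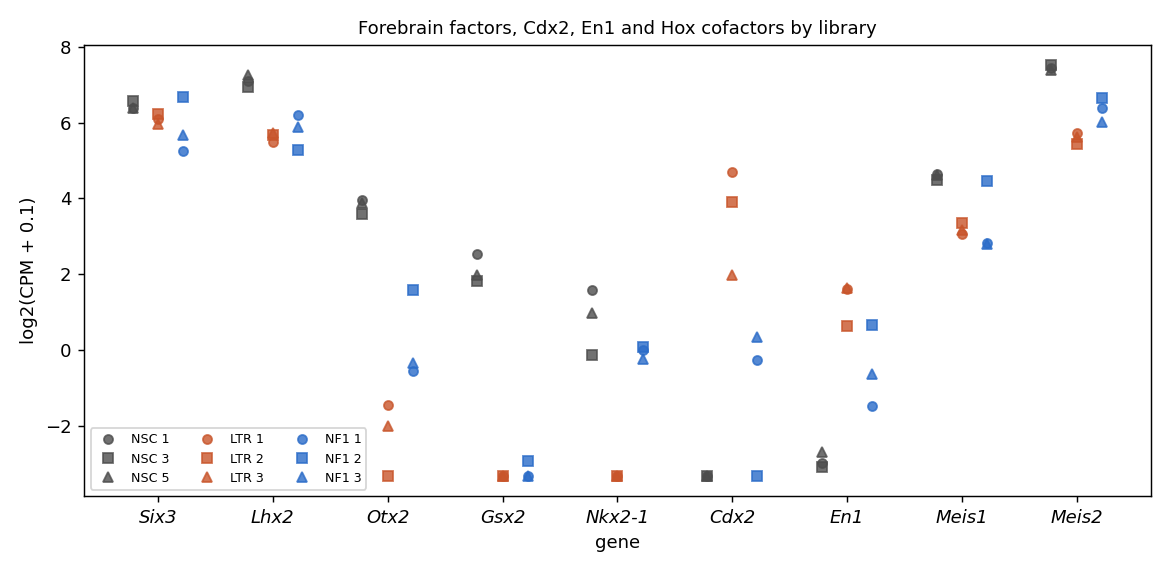
Levels of forebrain factors, Cdx2, En1 and 2 Hox cofactors on the log2(CPM + 0.1) scale, where points at the bottom have 0 counts; colours are groups and shapes are libraries. Otx2 and Gsx2 are low in the tumour libraries, and Cdx2 is at 0 in NSC and NF1 2 and highest in LTR.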

How the data were processed

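The data cover 9 mouse cell cultures. Per the labels' protocols, RNeasy Plus columns gave the RNA and a NEBNext Ultra kit the libraries. The authors deposited unnormalised counts for each gene, and all value columns were used. Tools and builds listed by the submitters' processing notes are HTSeq, STAR 2.5.2a, DESeq2 1.8.2, mm10 and GRCm38. Annotation release, counting mode and strand setting were not stated, so reads that overlap another gene could have been dropped or shared.

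Counts were analysed with edgeR 4.0.16 (TMM scaling, filterByExpr with a minimum count of 10, 1 model of 3 groups over 9 libraries), limma 3.58.1 and DESeq2 1.42.0 in R 4.3.3. The code was tested on simulated data. CPM uses TMM-scaled totals. Positions and exon lengths come from GENCODE M21 (GRCm38), which held 47310 of the 47729 identifiers. No pair of libraries in a group was a duplicate.

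The members and the gene lists were chosen with earlier results of these data known. Named are the Hox genes with 10 or more counts in some library, the other members by name and count (some genes are not reported here), up to 3 genes per list by smallest adjusted p, and expressed flanking and noncoding cluster genes. Alternatives covered scaling, filters, tests, libraries used and each library left out.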

Additional observations from a re-analysis of the deposited data

How the results depend on the processing

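The increases of Hoxa2, Hoxa3, Hoxa4, Hoxa5 and Hoxa7 in both lines, and of Hoxa10 in LTR, passed under every alternative that gave a value (16 or 17 each). Of 500 alternative values for single genes, 438 kept direction and call. All alternatives reuse the same libraries. Hoxa2, Hoxa3, Hoxa4 and Hoxa7 had 0 counts in NSC and were tested through tumour reads, so their direction against NSC could not turn. A filter at 10 CPM left no Hox gene to test. The number of Hox genes higher in LTR, 8, ran from 7 to 13 over libraries left out and was 13 with NF1 2 and NSC 3 both left out. The number higher in NF1, 9, ran from 6 to 11 over libraries left out and was 5 when only the 6 libraries compared were fitted, which left 5 members to test. With NF1 2 and NSC 3 both left out, 1 Hox gene, Hoxd10, was higher in NF1 than in LTR (adjusted p 0.0453), in place of 0; the cause was not tested. Members detected in a whole group, 6 in LTR and 5 in NF1, became 13 and 10 when 1 library sufficed, 10 without LTR 2 and 9 without NF1 2 (ranges over libraries left out 6 to 10 and 5 to 9), and 1 in NF1 at 1 or more CPM. The signs of small NF1 minus LTR differences, all uncalled, turned: Hoxa4 (-0.76 to 0.10 over libraries left out) to 0.10 without NF1 2 and with NF1 2 and NSC 3 both left out, Hoxa2 (-0.49 to 0.48) to 0.48 without LTR 3, 0.33 without NF1 2 and 0.32 with both left out, and Hoxd4 (-0.86 to 0.71) to 0.0074 with DESeq2 size factors, 0.0207 with the DESeq2 Wald test, 0.0144 with 6 libraries and 0.560 with both left out.

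Over all genes, deviations of same-numbered libraries correlated at -0.185 to 0.121, and those of libraries with different numbers at -0.135 to 0.133. LTR 2 and NF1 2, which both lacked Hoxd reads, share a number. A link between same-numbered cultures for single genes was not tested. With the replicate block, 10 Hox genes were higher in LTR, with Hoxd3 and Hoxd10 gained (adjusted p 0.0322 and 0.0357), 9 in NF1, with Hoxd4 gained (0.0255) and Hoxa10 lost (0.172), and 0 differed between the lines, and calls over all genes fell from 5634 to 3477 (LTR) and from 3631 to 1942 (NF1). Over all alternatives these calls ran from 3281 to 8018 and from 1752 to 7485, and those between the lines from 0 to 328. Few reads limit Hoxa2, Hoxa6, Hoxa9, Hoxa10 and the Hoxd genes.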

Other observations

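Of the 47729 genes, 4 had 0 counts in the NSC libraries, LTR 2 and NF1 2 and 10 or more in LTR 1, LTR 3, NF1 1 and NF1 3: Hoxd4, Hoxd3os1, Haglr and Gm13652. The search was made after the pattern had been seen in Hoxd4. All 4 lie in the Hoxd cluster or within 500 kb of it. Gm13652, a noncoding gene 360 kb beyond the Hoxd1 end, past Mtx2, had 81, 0 and 39 counts in LTR 1, 2 and 3 and 176, 0 and 100 in NF1 1, 2 and 3. With under 10 counts allowed in place of 0, 15 genes had the pattern.

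Pax3, a factor of the dorsal neural tube and the neural crest, was also high in the NF1 cultures that held Hoxd reads. It had 259, 0 and 198 counts in NF1 1, 2 and 3, 5, 0 and 0 in LTR and 0 in NSC, and had too few positive libraries to be tested. It was named after its values were seen.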
